A study of Mus musculus with 4 samples.

Results

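Polycomb complex genes encode the subunits of the Polycomb repressive complexes. The 36 genes described here were taken from the gene table by name, and all 36 were found among its 56748 listed genes. They comprised 6 genes of the PRC2 core (Ezh1, Ezh2, Eed, Suz12, Rbbp4, Rbbp7), 6 accessory genes of PRC2, both RING1 ligases of PRC1, 10 genes of canonical PRC1, 10 genes of variant PRC1 and 2 genes of the PR-DUB deubiquitinase. RNA was sequenced from E14 cells, a mouse embryonic stem cell (mESC) line grown without feeders in serum and leukemia inhibitory factor. The WT group held 2 libraries (WT1, WT2) of unedited E14 cells. The Npac KO group held 2 libraries (KO1, KO2) of E14 cells in which Npac, whose gene symbol is Glyr1, had been disrupted with CRISPR/Cas9 and which had passed through puromycin selection and colony picking. The study describes knockout clones 1 and 2, so each knockout library stands for a single clone, and no source used here says that the WT cells went through the same selection. No source used here states that WT1 and WT2 came from separate cultures, so the p-values measure the spread between these libraries, which may be technical.

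Polycomb proteins keep developmental genes silent in stem cells. PRC2 methylates lysine 27 of histone H3: Ezh1 or Ezh2 carries out the reaction, Suz12 and Eed are needed for it, and accessory subunits guide the complex to chromatin. PRC1 adds ubiquitin to histone H2A through Ring1 or Rnf2. Canonical PRC1 holds a Cbx subunit that reads the mark left by PRC2, whereas variant PRC1 holds Rybp or Yaf2 in its place, and PR-DUB removes the ubiquitin. In mESCs these complexes sit mostly at promoters rich in CpG dinucleotides. RNA levels alone were measured here, with no protein, histone mark or chromatin binding.

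The counts assigned to genes came to 15850805 in WT1 and 16568283 in WT2, against 16233971 in KO1 and 16965120 in KO2. The 36 genes together took 0.563% of these reads in WT1 and 0.504% in WT2, against 0.573% in KO1 and 0.603% in KO2. The targeted gene was examined first. Glyr1 had 3961 reads in WT1 and 3115 in WT2, against 744 in KO1 and 888 in KO2, and its level fell by 2.14 on the log2 scale in Npac KO cells (SE 0.23, adjusted p = 0.00174, edgeR's quasi-likelihood test). The transcript thus remained at 0.227 times its WT level in the knockout libraries, and the counts do not show whether those reads carry the edit. By qPCR the study reported that Npac mRNA was lost completely, and by Western blot that the protein was absent from both clones.

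The embryonic stem cell label was checked against marker genes. Pou5f1 had a normalised level of 840 CPM (reads scaled to a common library total with edgeR's TMM factors) in WT1 and 688 in WT2, against 600 in KO1 and 538 in KO2, and Nanog had 784, 666, 561 and 693 CPM in the same order. Of the 7 stem cell markers, 1 passed the thresholds, Zfp42, which fell by 2.64 (SE 0.22, adjusted p = 0.000704). The summed level of these 7 markers was 5994 CPM in WT1 and 4737 in WT2, against 4187 in KO1 and 3961 in KO2. Both knockout libraries lay below both WT libraries for 4 of these 7 markers, and for 32.5% of all genes tested. Genes were left out of the marker lists after their values were seen, so the counts of markers describe the genes kept. Dppa5a, the most abundant of the 7, and Utf1 were higher in both knockout libraries (1.20-fold and 1.40-fold), without passing. Fibroblast markers Dcn and Col3a1 had no read in any library, and Lum and Postn had at most 1, while Col1a1 rose by 1.29 (SE 0.33, adjusted p = 0.0308). The 7 fibroblast markers summed to 35.8 CPM in WT1 and 59.1 in WT2, against 45.1 in KO1 and 50.7 in KO2, with Thy1 the most abundant in each. Primitive endoderm markers summed to 31.8, 32.5, 20.4 and 27.7 CPM in the same order, with Foxa2 at no more than 2 reads. Sox7 had 273 reads in WT1 and 162 in WT2, against 4 in KO1 and 16 in KO2. Dab2 was also lower in both knockout libraries, and Sox17 overlapped. Gata4, Gata6 and Pdgfra were higher in both, by 1.40-fold, 1.91-fold and 1.71-fold, without passing. Neural progenitor markers summed to 91.6, 79.8, 85.0 and 99.4 CPM, with Tubb3 the most abundant in each library. Behind these sums Sox1 fell by 2.34 (SE 0.42, adjusted p = 0.00936, edgeR). Nes was 1.93-fold higher, above WT in both knockout libraries, without passing, and Pax6, Tubb3 and Neurog2 overlapped. Trophoblast markers summed to 61.9, 48.5, 173.6 and 150.4 CPM, most of it from Tfap2c (log2 fold change 1.81, SE 0.25, adjusted p = 0.00445). Cdx2 had no more than 16 reads in any library. The part of a changed cell state in the levels below was not tested, and in these bulk samples fewer cells of a type and less RNA per cell cannot be told apart.

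Across all 18157 genes tested, 1999 were higher in Npac KO cells (11.0%) and 1946 were lower (10.7%), where a call needed more than a 1.5-fold change and an adjusted p below 0.05. Of the 36 Polycomb genes, which all entered the test, 2 rose (Suz12, Ezh1) and 2 fell (Cbx6, Rnf2), so that 11.1% were called against 21.7% of all genes. Their median log2 fold change was 0.15, beside 0.00 for all genes tested. Both knockout libraries lay above both WT libraries for 12 of the 36 genes and below them for 8, and the groups overlapped for the other 16. Over all genes tested the knockout libraries lay above in 33.2% and below in 32.5%. With 1 library left out, its group held a single library that was assumed to vary like those of the other group. The spread was in fact unequal, with a chi-square per gene of 41.9 between WT1 and WT2 and 13.1 between KO1 and KO2. The counts of calls depended on single libraries, for the Polycomb genes as well as over all genes tested.

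**Figure D1:**
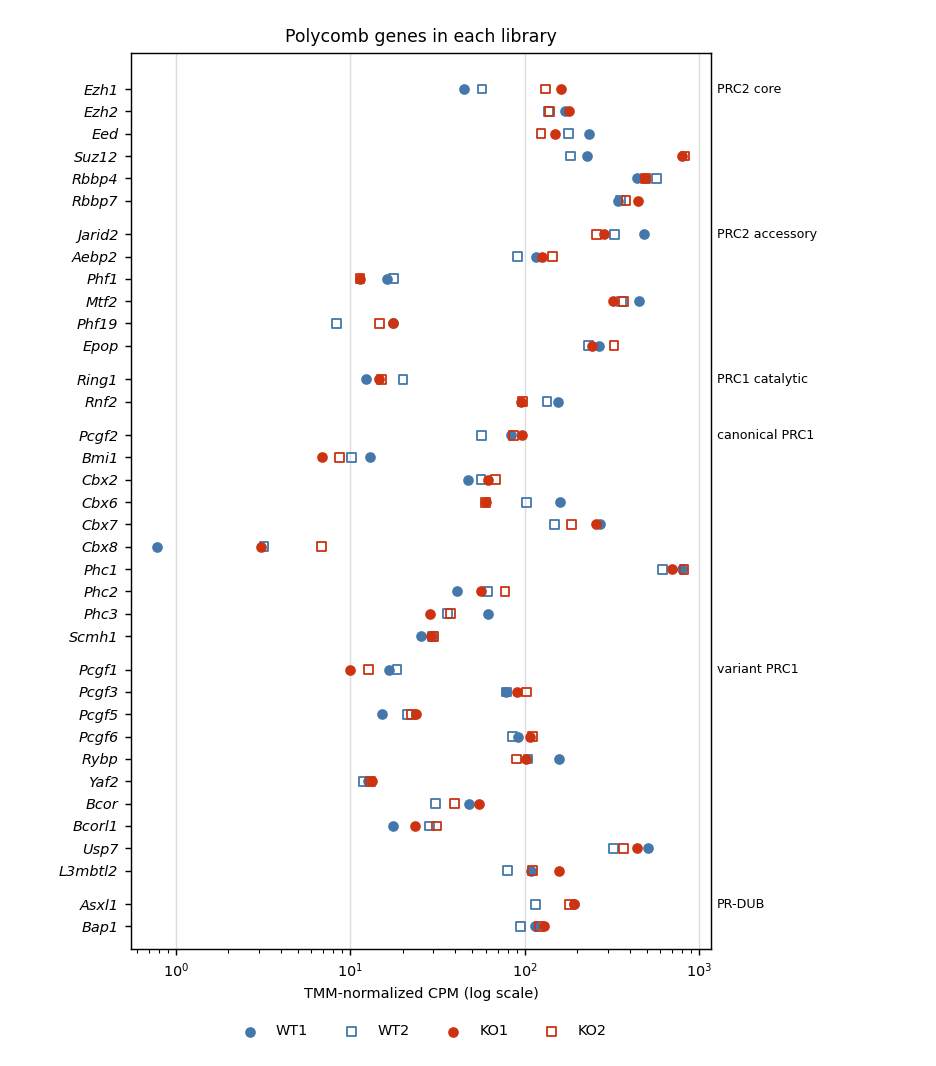
Normalised level (CPM, log axis) of each of the 36 Polycomb genes in the 4 libraries, grouped by complex. The knockout points of Suz12 and Ezh1 sit well to the right of the WT points, those of Cbx6 and Rnf2 to the left, and in most other rows the points of the groups lie close together or mix.

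The 250 bases before the start site of the 4 genes that passed are shown because promoters dense in CpG are where Polycomb complexes are known to bind in mESCs. The sequences are from RefSeq on GRCm38.p6, written 5′ to 3′ on the strand of each gene, with every CpG in capitals.
Suz12, chr11:79992856-79993105, plus strand: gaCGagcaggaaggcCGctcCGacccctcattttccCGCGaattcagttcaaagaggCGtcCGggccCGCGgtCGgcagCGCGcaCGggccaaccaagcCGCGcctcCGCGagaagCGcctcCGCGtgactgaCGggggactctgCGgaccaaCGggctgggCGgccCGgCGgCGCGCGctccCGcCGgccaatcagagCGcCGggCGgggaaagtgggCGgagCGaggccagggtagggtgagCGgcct
Ezh1, chr11:101226464-101226713, minus strand: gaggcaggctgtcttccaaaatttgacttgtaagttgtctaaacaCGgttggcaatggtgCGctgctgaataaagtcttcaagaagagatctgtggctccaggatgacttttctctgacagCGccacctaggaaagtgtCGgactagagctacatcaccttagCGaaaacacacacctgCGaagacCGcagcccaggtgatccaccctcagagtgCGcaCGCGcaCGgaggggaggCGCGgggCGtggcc
Rnf2, chr1:151500992-151501241, minus strand: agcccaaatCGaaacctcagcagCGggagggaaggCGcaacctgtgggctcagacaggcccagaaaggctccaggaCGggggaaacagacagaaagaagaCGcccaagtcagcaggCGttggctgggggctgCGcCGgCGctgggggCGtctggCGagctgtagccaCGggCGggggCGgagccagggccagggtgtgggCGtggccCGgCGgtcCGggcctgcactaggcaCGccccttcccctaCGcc
Cbx6, chr15:79834334-79834583, minus strand: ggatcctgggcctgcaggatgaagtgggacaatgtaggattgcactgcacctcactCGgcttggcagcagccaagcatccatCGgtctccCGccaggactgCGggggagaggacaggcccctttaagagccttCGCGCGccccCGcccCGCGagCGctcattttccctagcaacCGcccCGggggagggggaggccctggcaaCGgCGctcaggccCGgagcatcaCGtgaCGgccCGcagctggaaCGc

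The Suz12 window held 37 CpG dinucleotides and 73.6% G or C. The Rnf2 and Cbx6 windows held 20 CpG each, at 70.4% and 68.0% G or C, and the Ezh1 window held 14, at 55.2%. RefSeq promoters were matched for 31 of the 36 genes, in 41 windows with a median of 20 CpG, and the median over all 32851 promoter windows was 6. The letters TTTCCCGC, an E2F motif, occurred in the Suz12 window. TTTCCCGC or TTTGGCGC, searched together on both strands, occurred in 1.30% of all windows. The E-box CACGTG occurred in the Cbx6 window and in 6.02% of all windows. The Sp motif GGGCGG occurred in the Suz12, Rnf2 and Cbx6 windows and in 32.7% of all windows, and none of the 7 motifs searched was found in the Ezh1 window. These matches describe the letters only, and no motif searched is contained in another. The other motifs searched on both strands were CCGGAAGT (ETS, 2.88% of all windows), the palindromic NRF1 motif (0.782%), GCCATCTT (YY1, 1.56%) and TGACGTCA (CRE, 1.55%).

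Within the PRC2 core, 2 of 6 genes rose in Npac KO cells and none fell, beside 11.0% of all genes called higher. Both lie on chromosome 11, where 26.7% of the genes tested were called higher. Suz12, the zinc finger subunit on which PRC2 is assembled, had 229 CPM in WT1 and 182 in WT2, against 799 in KO1 and 829 in KO2. The knockout libraries were therefore close to each other and far above both WT libraries, at 814 ± 21.2 against 206 ± 32.9 CPM (SD, n = 2 each). The difference was 3.96-fold (log2 fold change 1.99, SE 0.20, adjusted p = 0.00141, edgeR), and its log2 fold change ranked 831 from the highest among the 18157 genes tested. Per length, Suz12 reached 161 and 165 FPKM (fragments scaled to gene length and library total, as deposited) in KO1 and KO2 and passed Phc1, the Polycomb gene of highest mean FPKM in WT cells, which had 132 and 152 FPKM there. Suz12 (ENSMUSG00000017548) lies at chr11:79883932-79924949 on the plus strand in the authors' files.

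Ezh1, the methyltransferase of PRC2 that is usually the minor one in stem cells, had 45.2 CPM in WT1 and 56.9 in WT2, against 161 in KO1 and 132 in KO2. The groups did not overlap, and the level rose 2.87-fold (log2 fold change 1.52, SE 0.21, adjusted p = 0.00406, edgeR). Ezh1 (ENSMUSG00000006920) lies at chr11:101081941-101117289 on the minus strand in the files. Its paralog Ezh2, the main methyltransferase of dividing stem cells, had 170 CPM in WT1 and 137 in WT2, against 179 in KO1 and 139 in KO2. Here the libraries of both groups were interleaved, with a log2 fold change of 0.05 (95% confidence interval -0.43 to 0.53), an interval that leaves out a 1.5-fold change in either direction. Per length, Ezh1 made up 19.3% of the summed Ezh1 and Ezh2 FPKM in WT1 and 27.1% in WT2, and 44.8% in KO1 and 45.9% in KO2. With 2 libraries against 2, the exact permutation test of this share cannot go below its observed two-sided p = 0.333, and the same limit holds for the shares in all 10 paralog families compared, before any adjustment.

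Eed, which binds the methylated histone tail and stimulates the enzyme, had 234 CPM in WT1 and 179 in WT2, against 150 in KO1 and 124 in KO2. Both knockout libraries were the lower ones, but the difference did not pass (log2 fold change -0.59, SE 0.21, adjusted p = 0.0780). It passed with a replicate block (adjusted p = 0.0282, edgeR). The histone chaperones Rbbp4 and Rbbp7, which PRC2 shares with other chromatin complexes, had log2 fold changes of -0.04 and 0.25, with adjusted p of 0.907 and 0.366. Rbbp4 overlapped between groups, with WT1 at 442, WT2 at 570, KO1 at 491 and KO2 at 493 CPM. Rbbp7 overlaps Txlng on the opposite strand, which had 16.4% to 25.8% of its reads, and the use of strand in the counting is not stated.

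Suz12 and Ezh1 lie on chromosome 11, as do Epop, Pcgf2, Cbx2 and Cbx8. Genes on this chromosome were higher as a whole in Npac KO cells, with a median log2 difference from WT of 0.51 in KO1 and 0.48 in KO2, and those on chromosome 8 were shifted by 0.51 and 0.52. WT2 differed from WT1 by a median of 0.03 on chromosome 11. Of the 1455 genes tested on chromosome 11, 26.7% were called higher. Whether the cells carry extra copies of these chromosomes was not tested. With the median of each chromosome removed, Suz12 remained 1.49 higher (adjusted p = 0.00436) and Ezh1 1.03 higher (adjusted p = 0.0151) on the log2 scale. The other members on this chromosome were not called with or without the medians, and the log2 fold changes of Epop, Pcgf2 and Cbx2 moved from 0.19, 0.38 and 0.33 to -0.30, -0.11 and -0.17.

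**Figure D2:**
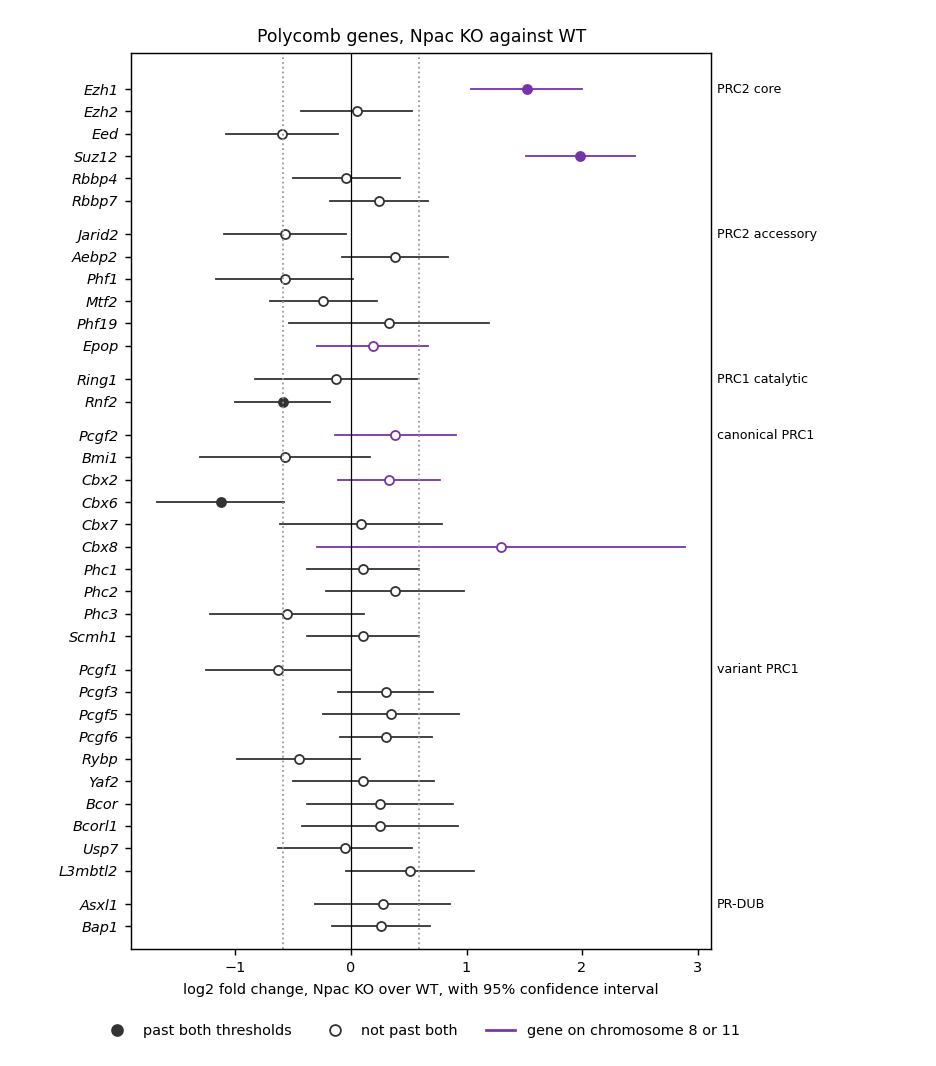
Log2 fold change of each Polycomb gene, Npac KO over WT, with its 95% confidence interval from edgeR (2 libraries a group). Filled points passed both thresholds, dotted lines mark a 1.5-fold change, and Suz12 at 1.99 and Cbx6 at -1.13 are the ends of the range of those that passed.

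None of the 6 accessory genes of PRC2 passed, beside 21.7% of all genes tested. Jarid2, which recruits PRC2 and is itself one of its substrates, had 480 CPM in WT1 and 327 in WT2, against 285 in KO1 and 257 in KO2. The knockout libraries were the lower ones, while the spread between WT1 and WT2 was larger than the step from WT2 to KO1 (log2 fold change -0.57, SE 0.23, adjusted p = 0.108). Aebp2, its usual partner in the same form of PRC2, differed by a log2 fold change of 0.38 (adjusted p = 0.201). Of the 3 Polycomb-like proteins, which tether the other form of PRC2 to CpG-rich DNA, Mtf2 was by far the most abundant, with 90.7% of their summed FPKM in WT1 and 90.4% in WT2, against 89.3% in KO1 and 91.2% in KO2. Its log2 fold change was -0.24 (adjusted p = 0.420), that of Phf19 0.33 (adjusted p = 0.559) and that of Phf1 -0.57 (adjusted p = 0.145). Phf1 overlaps Cuta on the opposite strand, which had 240% to 314% of the reads of Phf1, and Mtf2 overlaps Tmed5, which had 4.28% to 14.1% of the reads of Mtf2. Epop, which links PRC2 to Elongin, had a mean of 107 FPKM in WT cells, the third highest of the 36 genes after Phc1 and Rbbp7, and its log2 fold change was 0.19 (adjusted p = 0.548).

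Of the 2 ubiquitin ligases of PRC1, Rnf2 fell slightly. Rnf2, known as RING1B and the main H2A ligase of mESCs, had 155 CPM in WT1 and 134 in WT2, against 94.8 in KO1 and 96.9 in KO2. The groups did not overlap, and the log2 fold change was -0.59 (SE 0.18, adjusted p = 0.0495, edgeR), just past both thresholds. This call was lost in 6 of 10 alternative settings, DESeq2 among them (adjusted p = 0.0526), and when WT1, KO1 or KO2 was left out, although the log2 fold change stayed between -0.70 and -0.51 throughout. Rnf2 (ENSMUSG00000026484) lies at chr1:151333755-151376706 on the minus strand in the files and overlaps Trmt1l on the opposite strand, which had 15.6% to 25.1% of its reads. Its paralog Ring1 had 12.4 CPM in WT1 and 20.1 in WT2, against 14.7 in KO1 and 15.1 in KO2, with the knockout values inside the WT range (log2 fold change -0.13, adjusted p = 0.791). Rnf2 held 90.8% of the summed FPKM of the pair in WT1 and 84.0% in WT2, against 83.6% in KO1 and 83.5% in KO2.

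Canonical PRC1 held 1 of the calls among its 10 genes, beside 21.7% of all genes tested. Cbx6, a chromodomain subunit, had 159 CPM in WT1 and 103 in WT2, against 60.4 in KO1 and 59.3 in KO2. The knockout libraries were almost equal and below both WT libraries, which differed 1.55-fold from each other, and the level was 2.18-fold lower in Npac KO cells (log2 fold change -1.13, SE 0.24, adjusted p = 0.0156, edgeR). The call held in all 10 alternative settings and was lost when KO2 was left out (adjusted p = 0.0804). Cbx6 (ENSMUSG00000089715) lies at chr15:79708097-79718889 on the minus strand in the files, 81.1 kb from Cbx7. Cbx7, the main Cbx subunit of undifferentiated mESCs, had 270 CPM in WT1 and 147 in WT2, against 257 in KO1 and 186 in KO2. The spread of Cbx7 within each genotype exceeded the difference between them (log2 fold change 0.08, 95% confidence interval -0.62 to 0.79), and its opposite-strand neighbour Apobec3 had 18.4% to 45.7% of its reads. Cbx6 thus made up 22.0% of the summed FPKM of the 4 Cbx members in WT1 and 20.8% in WT2, against 9.38% in KO1 and 10.8% in KO2, while the shares of Cbx7, Cbx2 and Cbx8 overlapped between the groups.

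Cbx2, a chromodomain subunit known for compacting chromatin, differed by a log2 fold change of 0.33 (adjusted p = 0.247). Cbx8, which is scarce in undifferentiated mESCs, had 12 reads in WT1 and 56 in WT2, against 48 in KO1 and 118 in KO2. The groups thus overlapped, and the log2 fold change of 1.30 did not pass (SE 0.69, adjusted p = 0.208). With a replicate block Cbx8 was called, at 1.45 (adjusted p = 0.0161, edgeR). Its log2 fold change ranged from 0.60 without WT1 to 2.65 without WT2. The PCGF subunits of canonical PRC1 differed in sign but neither passed, at 0.38 on the log2 scale for Pcgf2 (adjusted p = 0.256) and -0.57 for Bmi1 (adjusted p = 0.229). Bmi1 was the minor one of the pair, with 12.2% of their summed FPKM in WT1 and 13.8% in WT2, against 5.98% in KO1 and 8.21% in KO2. Phc1, a polyhomeotic subunit that lets PRC1 complexes cluster through its SAM domain, had the highest mean FPKM of the Polycomb genes in WT cells, although Rbbp7 exceeded it in WT2, with 121 against 115 FPKM. Phc1 had 800 CPM in WT1 and 617 in WT2, against 703 in KO1 and 818 in KO2. Its log2 fold change was 0.10 (95% confidence interval -0.38 to 0.59), its paralogs Phc2 and Phc3 had 0.38 (adjusted p = 0.314) and -0.55 (adjusted p = 0.203), and Scmh1, a SAM domain partner, had 0.10 (adjusted p = 0.749).

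**Figure D3:**
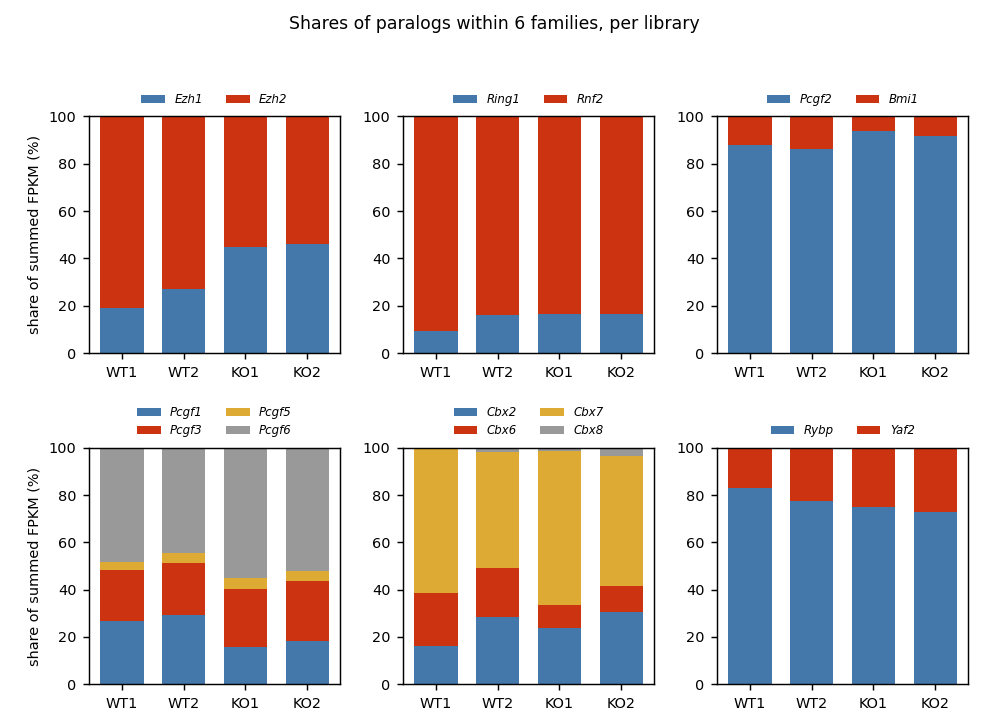
Share (percent) of each paralog in the summed FPKM of its family, shown for each of the 4 libraries and for 6 of the 10 families. The Ezh1 share is larger in both knockout libraries (44.8% and 45.9%) than in both WT libraries (19.3% and 27.1%), and the Cbx6 share is smaller.

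None of the 10 genes of variant PRC1 passed, beside 21.7% of all genes tested. Pcgf6, the PCGF subunit of the variant complex with Max and Mga, was the most abundant of the 4 variant PCGF genes, with 48.4% of their summed FPKM in WT1 and 44.4% in WT2, against 54.9% in KO1 and 52.2% in KO2. Its CPM was 91.9 in WT1 and 85.2 in WT2, against 107 in KO1 and 111 in KO2, higher in both knockout libraries but by 1.23-fold (adjusted p = 0.240). Pcgf1, the PCGF subunit of the complex that Kdm2b brings to CpG islands, had 16.7 CPM in WT1 and 18.5 in WT2, against 10.04 in KO1 and 12.7 in KO2. Both knockout libraries were lower, without passing (log2 fold change -0.63, SE 0.27, adjusted p = 0.129). Pcgf1 held 26.8% of the variant PCGF level in WT1 and 29.5% in WT2, against 15.7% in KO1 and 18.2% in KO2. The log2 fold changes of Pcgf3 and Pcgf5 were 0.30 (adjusted p = 0.256) and 0.34 (adjusted p = 0.361).

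Rybp, which binds ubiquitinated H2A and stimulates the ligase, had 157 CPM in WT1 and 104 in WT2, against 101 in KO1 and 89.8 in KO2. The knockout libraries were lower than WT2 by less than WT2 was lower than WT1 (log2 fold change -0.45, SE 0.23, adjusted p = 0.193), and the paralog Yaf2 had 0.11 (adjusted p = 0.800). L3mbtl2, the MBT domain subunit of the complex with Pcgf6, had 109 CPM in WT1 and 80.0 in WT2, against 157 in KO1 and 111 in KO2. KO2 was barely above WT1, and the difference did not pass (log2 fold change 0.51, SE 0.24, adjusted p = 0.163). The corepressors Bcor and Bcorl1 both had log2 fold changes of 0.25 (adjusted p = 0.541 and 0.566), and Usp7, a deubiquitinase found with them, had -0.05 (95% confidence interval -0.63 to 0.53). In PR-DUB, the deubiquitinase Bap1 and its activating partner Asxl1 had log2 fold changes of 0.26 (adjusted p = 0.337) and 0.27 (adjusted p = 0.466).

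Close copies of these genes elsewhere in the genome took few reads. A search of the annotated pseudogenes for copies with at least 90% identity over 60% of their length found 10, and Gm6382, a copy of Rbbp7, had the most reads, with 50 in WT1 and 68 in WT2, against 54 in KO1 and 72 in KO2. None was found for Suz12, Ezh1, Cbx6 or Rnf2.

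Another 41 genes encode further proteins of the same complexes, or enzymes that remove their marks. All 41 were tested. In 39 of them both libraries of each group reached the count filter, and of these 7 rose and 3 fell. Among the 18 partners of variant PRC1, 6 genes rose and 2 fell. Over all genes tested, 11.0% were called higher and 10.7% lower. Some genes of this list were left out after their values were seen. Its counts therefore describe the genes kept and are not to be read against those shares. Hdac1, a histone deacetylase that occurs in the complex with L3mbtl2 and in several others, had 174 CPM in WT1 and 165 in WT2, against 497 in KO1 and 425 in KO2. The knockout libraries were far above the WT libraries, which nearly coincided (log2 fold change 1.44, SE 0.19, adjusted p = 0.00337). Its paralog Hdac2 had 277, 226, 185 and 170 CPM in the same order, lower in both knockout libraries without passing (log2 fold change -0.50, SE 0.19, adjusted p = 0.0932).

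Kdm2b, the CpG-binding subunit of the complex with Pcgf1 and Bcor, had 60.1 CPM in WT1 and 56.8 in WT2, against 98.8 in KO1 and 89.0 in KO2 (log2 fold change 0.68, SE 0.18, adjusted p = 0.0323). This call was lost with limma on FPKM (adjusted p = 0.0664 and 0.0736 with pseudocounts of 0.1 and 1). Skp1, found in the same complex, had a log2 fold change of 1.16 (SE 0.20, adjusted p = 0.00870). Csnk2a2, a catalytic subunit of casein kinase 2, had 1.18 (adjusted p = 0.00545), Dcaf7, a WD40 scaffold protein, had 0.93 (adjusted p = 0.0118), and both occur with Pcgf3 and Pcgf5. Tfdp1, the partner of E2F factors, had 0.83 (adjusted p = 0.0152), whereas E2f6, the E2F factor of the complex with Pcgf6, fell by 0.76 (SE 0.21, adjusted p = 0.0375). Fbrsl1, a relative of the variant PRC1 subunit Auts2, fell by 0.95 (SE 0.20, adjusted p = 0.0154). Of the 7 that rose, 4 lie on chromosome 11 (Skp1, Dcaf7) or 8 (Csnk2a2, Tfdp1), chromosomes on which 26.5% of the genes tested were called higher. With chromosome medians removed, Csnk2a2 remained called (0.67, adjusted p = 0.0361), and Skp1 (0.67, adjusted p = 0.0519), Dcaf7 (0.43, adjusted p = 0.121), Tfdp1 (0.32, adjusted p = 0.227) and E2f6 (-0.66, adjusted p = 0.0585) did not. Dcaf7, Tfdp1, Kdm2b, Fbrsl1 and E2f6 were no longer called when either KO1 or KO2 was left out.

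**Figure D4:**
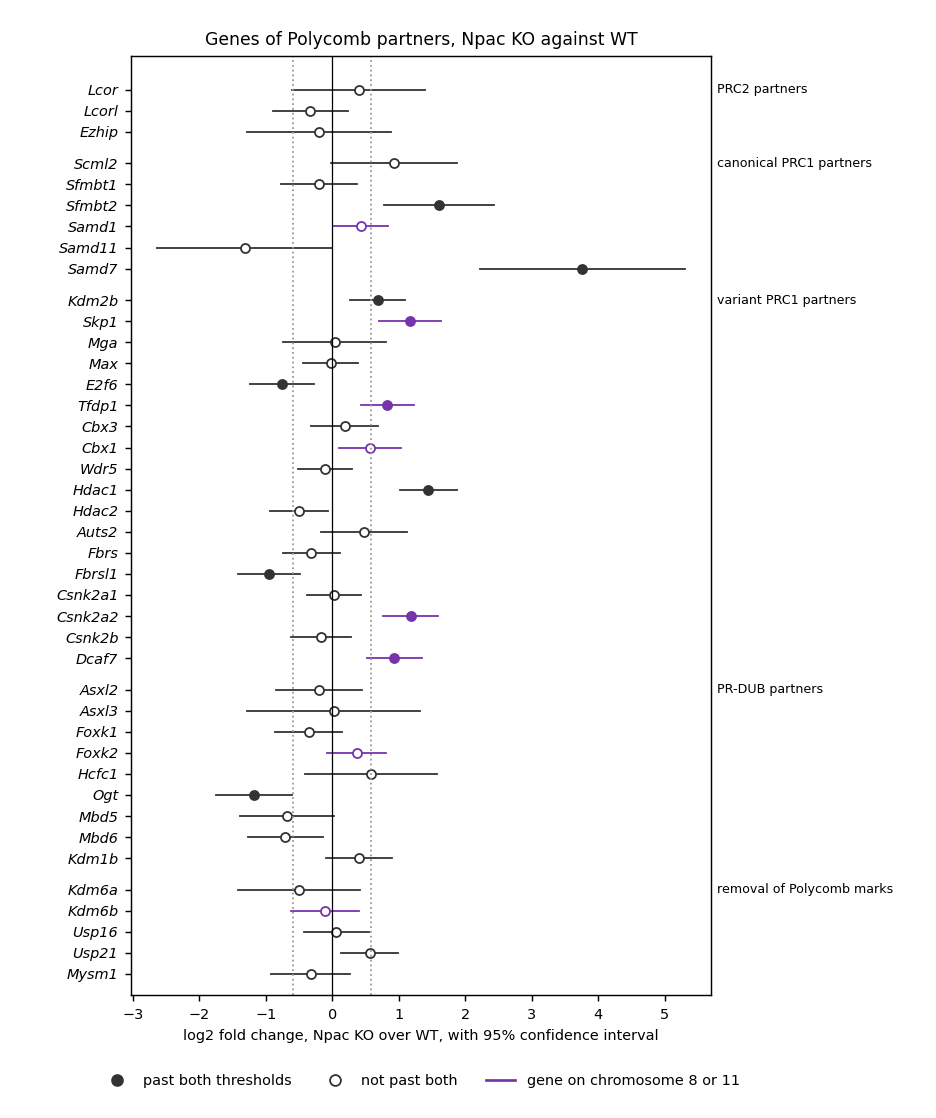
Log2 fold change of the 41 partner genes, Npac KO over WT, with 95% confidence intervals from edgeR (2 libraries a group). Filled points passed both thresholds, purple marks genes on chromosomes 8 and 11, and 4 of the 8 filled points to the right of 0 are purple. The filled point farthest to the right is Samd7, whose WT libraries lay below the count filter.

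Among partners of canonical PRC1, Sfmbt2, an MBT domain protein, had 11.1 CPM in WT1 and 5.55 in WT2, against 27.4 in KO1 and 22.9 in KO2 (log2 fold change 1.60, SE 0.36, adjusted p = 0.0190). Samd7, a SAM domain protein known from photoreceptors, entered the test only through its knockout reads and is not counted among the genes that rose. It had 2 reads in each WT library, 23 in KO1 and 35 in KO2. The call of Sfmbt2 was lost without KO1 (adjusted p = 0.0562). Of the 9 partners of PR-DUB, 1 passed. Ogt, the enzyme that adds N-acetylglucosamine to nuclear proteins, had 843 CPM in WT1 and 536 in WT2, against 295 in KO1 and 313 in KO2 (log2 fold change -1.18, SE 0.25, adjusted p = 0.0151). Kdm1b, a demethylase also reported with PR-DUB and known to bind Npac, differed by a log2 fold change of 0.40 (adjusted p = 0.211). None of the 5 enzymes that remove Polycomb marks passed, and the H3 lysine 27 demethylases Kdm6a and Kdm6b had log2 fold changes of -0.50 (adjusted p = 0.396) and -0.11 (adjusted p = 0.756).

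Developmental genes that are widely listed as Polycomb targets in mESCs were described next, since no histone mark was measured in these samples. The list held 72 genes, of which 42 passed the filter on low counts, so that a gene silent in WT cells could enter only through reads in the knockout libraries. In 22 of the 42 both libraries of each group reached the filter, and 3 of these were called lower. Genes were left out of this list too after their values were seen, so its counts describe the genes kept. Another 3 genes (Olig2, Neurog1, Hoxb4) lay past the thresholds on the higher side. Only the knockout libraries of Olig2 and Neurog1 reached the filter, and Hoxb4 reached it in both knockout libraries and 1 WT library. The values of these 3 are given without a test. Levels of the tested target genes were low, and none exceeded a mean of 9.82 FPKM in WT cells. Olig2, a factor of motor neuron and oligodendrocyte precursors, had 2 reads in WT1 and 3 in WT2, against 227 in KO1 and 210 in KO2. Neurog1, a proneural factor, had 0 reads in WT1 and 3 in WT2, against 94 in KO1 and 137 in KO2. Both genes were nearly without reads in the WT libraries and clearly read in both knockout libraries.

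Sox1, a factor of the early neural plate, moved the other way, with 27.8 CPM in WT1 and 13.4 in WT2, against 3.47 in KO1 and 4.62 in KO2 (log2 fold change -2.34, SE 0.42, adjusted p = 0.00936). Of 39 Hox genes, 18 were tested and 2 fell. Hoxb4 had 6 reads in WT1 and 12 in WT2, against 29 in KO1 and 44 in KO2 (log2 fold change 2.01). It lies on chromosome 11, and its log2 fold change was 1.52 with chromosome medians removed. Hoxc12 and Hoxc13, at the posterior end of the Hoxc cluster, fell by 2.06 (SE 0.45, adjusted p = 0.0178) and 1.55 (SE 0.33, adjusted p = 0.0164). Hoxc13 was the best measured Hox gene of the list, with 206 reads in WT1 and 307 in WT2, against 69 in KO1 and 106 in KO2. Of the 3 target genes called lower, Hoxc12 was lost without KO1 or without KO2 and Hoxc13 without KO1. With each library left out, their log2 fold changes stayed between -2.12 and -2.03 and between -1.79 and -1.35.

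**Figure D5:**
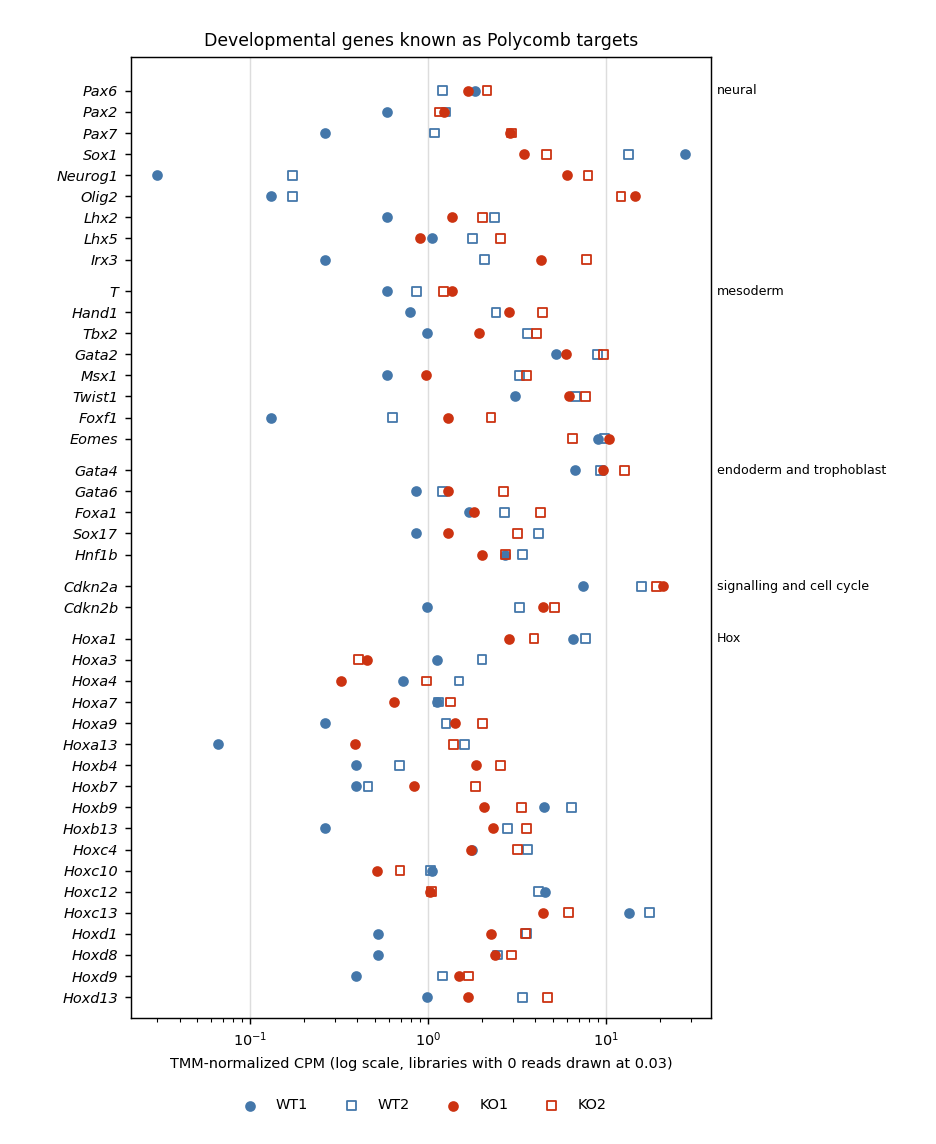
Normalised level (CPM, log axis) of the 42 tested Polycomb target genes in the 4 libraries, with libraries at 0 reads drawn at 0.03. Olig2 and Neurog1 lie near the low end in WT and above 6 CPM in both knockout libraries, while Sox1, Hoxc12 and Hoxc13 are lower in both knockout libraries.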

How the data were processed

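The authors mapped 150-bp paired-end reads of 4 libraries with HISAT, for which the study's methods and the submitters' notes give different versions, and counted them with featureCounts 1.5.0-p3, and the deposited table holds raw counts and FPKM per gene. Use of strand is not given in the sources used here. The deposited FPKM equalled reads scaled to length and library total multiplied by 1.03 in WT1 and 0.940 in WT2, against 1.04 in KO1 and 0.963 in KO2. The notes name mm10, but none of the 36 genes starts where GENCODE M21 (GRCm38) places it, so gene positions are as in the files with their build not settled.

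Counts were fitted with edgeR 4.0.16 (filterByExpr, TMM, glmQLFit, glmQLFTest, two-sided) on all genes, with Benjamini-Hochberg adjustment over the 18157 genes tested and the study's thresholds, a change over 1.5-fold with an adjusted p below 0.05. The common biological coefficient of variation was 0.235. Counts were simulated for KO vs WT with 200 changed genes among 17586 and with the same spread in both groups. The test recovered 30% of the 2-fold and 81% of the 4-fold changes, and 2.63% of its calls were false. The real libraries had unequal spread and many more genes called, so these rates may not hold for them. A modest change in a Polycomb gene could pass unseen. The 36 genes, and the lists of partners, targets and markers, were chosen with earlier results of these data known. All 36 and Glyr1 are named, as are the partner and target genes past both thresholds (at most 8 in each direction) and Kdm2b, Kdm6a, Kdm6b and Kdm1b. Some genes of the partner, target and marker lists are not reported here and were left out of the counts of those lists after their values were seen, so the totals of those lists describe the genes kept and are not to be read against the share called over all genes. Alternatives were DESeq2 1.42.0, RLE and upper-quartile scaling, other count filters, a replicate block, limma 3.58.1 on log2 FPKM with pseudocounts of 0.1 and 1 (whose fold changes understate those of low genes), removal of chromosome medians, addition of pseudogene reads, and leaving out each library. Pseudogenes were matched with blastn 2.17.0+, and promoters came from RefSeq on GRCm38.p6.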

Additional observations from a re-analysis of the deposited data

How the results depend on the processing

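Suz12 and Ezh1 stayed higher and called under all 10 alternatives (1.49 to 2.02 and 1.03 to 1.55), and with each library left out their log2 fold changes were 1.83 to 2.13 and 1.34 to 1.69. Glyr1 stayed lower under each of these except the addition of pseudogene reads, which was not run for it. Of 360 values (36 Polycomb genes, 10 alternatives), 347 kept their direction and side of the thresholds, 6 lost the call, 3 gained it and 4 changed sign. The 6 were all Rnf2. The 3 were Cbx8 with every gene that had a read (1.31, adjusted p = 0.0384) and Cbx8 (1.45, adjusted p = 0.0161) and Eed (-0.59, adjusted p = 0.0282) with the replicate block. Of 160 values of the 16 partner and target genes named that reached the count filter in both groups, 152 kept direction and side, 8 lost the call and none changed sign. The 8 were Skp1, Dcaf7 and Tfdp1 with chromosome medians removed, Kdm2b with FPKM at either pseudocount, and E2f6 with all 3 of these. Removing chromosome medians gave -0.30 for Epop, -0.11 for Pcgf2, -0.17 for Cbx2 and 0.0021 for Usp7. Of 144 values of the 36 genes with a library left out, 112 kept direction and side, 4 lost the call (Rnf2, Cbx6), 12 gained it and 16 changed sign. The 12 were Phf19, Pcgf2, L3mbtl2 and Asxl1 (higher) and Pcgf1 (lower) without WT1, and Cbx8, Phc2 and Bcorl1 (higher) and Eed, Jarid2, Phc3 and Rybp (lower) without WT2, with adjusted p from 0.000150 for Phc3 to 0.0435 for Pcgf1. Leaving out each library gave sign changes in genes that were not called, with ranges of -0.15 to 0.23 for Ezh2, -0.24 to 0.15 for Rbbp4, -0.12 to 0.93 for Phf19, -0.017 to 0.37 for Epop, -0.46 to 0.26 for Ring1, -0.29 to 0.56 for Cbx7, -0.076 to 0.27 for Phc1, -0.022 to 0.21 for Scmh1, -0.039 to 0.58 for Bcor, -0.075 to 0.63 for Bcorl1, -0.35 to 0.29 for Usp7, -0.050 to 0.66 for Asxl1, -1.02 to 0.28 for Kdm6a and -0.36 to 0.16 for Kdm6b. Shares of paralogs moved likewise, from -1.26 to 0.66 percentage points for Mtf2, -1.48 to 1.16 for Phc1 and -10.4 to 10.7 for Bcor.

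Partner genes called higher are counted below with Samd7 wherever it passed, so the main fit to set beside them has 8. Samd7 reached the filter only through its knockout reads, and it is among the 5 with chromosome medians removed. The count of Polycomb genes called lower was 1, Cbx6, under DESeq2, upper-quartile scaling, the filters on any read and on 10 reads, FPKM with a pseudocount of 1, and chromosome medians removed. With each library left out, between 2 and 6 Polycomb genes were higher and between 0 and 6 lower, 6 higher without WT1, 5 higher and 6 lower without WT2, and 1 lower without KO1 and none without KO2. Partner genes called higher numbered 5 with chromosome medians removed and between 4 and 14 with a library left out, 14 without WT1, 4 without KO1 and 4 without KO2, and those lower between 1 and 9, 9 without WT2, 1 without KO1 and 1 without KO2. Target genes past the thresholds on the higher side, which include genes that reached the filter only through their knockout reads, numbered 8 with every gene that had a read, 0 with at least 10 reads in each library, a filter that Olig2, Neurog1 and Hoxb4 do not pass (edgeR, 0 of 22 higher and 5 lower at an unadjusted p below 0.05, 3 of them called), and between 2 and 19 with a library left out, 19 without WT2. Target genes called lower ranged from 1, without KO1, to 6, without WT1. Over all genes, the count called higher was 3571 without WT2, 851 without KO1 and 826 without KO2, and the count called lower 3384, 824 and 821.

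Libraries with the same number deviated together (r = 0.332 across genes), but no label ties them, and whether they share a batch or day was not tested. A replicate block gave 3128 genes higher and 2994 lower, 9 target genes higher and 5 lower, and 3 Polycomb genes in each direction. The 9 target genes include Olig2 and Neurog1, which reached the filter only through their knockout reads. Changes under 2-fold could often not be called with 2 libraries a group, and Cbx8 and the target genes rest on few reads.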

Other observations

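In 17 of the 42 target genes tested, WT2 and KO2 both lay above WT1 and KO1, and in none did both lie below. Over all genes tested WT2 and KO2 lay above in 11.4% and below in 11.0%. Target genes were left out after their values were seen, and 20 of the 42 missed the count filter in at least 1 library. The count of 17 is therefore not to be read against those shares. Among the 36 Polycomb genes WT2 and KO2 lay above in 6 and below in 6. Hoxa13 had 1 read in WT1 and 28 in WT2, against 6 in KO1 and 24 in KO2, and Msx1 had 9, 57, 15 and 62 in the same order. For such genes the number of the library and not the genotype ordered the values. Its cause was not tested.

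Cdkn2a and Cdkn2b, cell cycle inhibitors at a locus that Polycomb is known to silence, were read at 7.40 and 0.982 CPM in WT1, 15.8 and 3.26 in WT2, 20.97 and 4.44 in KO1, and 19.2 and 5.14 in KO2. Both were highest in the knockout libraries, with log2 fold changes of 0.79 (SE 0.37, adjusted p = 0.160, edgeR) and 1.16 (SE 0.58, adjusted p = 0.183), and neither passed.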
